A study of Mus musculus with 104 samples.

Results

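Ttr, Rbp4, Alb, Trf, Gc, Hpx, Cp and Serpina6 encode 8 carrier proteins of blood plasma, and their mRNA was followed in primary mouse hepatocytes (PMH) after transfection of siRNAs, of which D4, D5 and D6 target Ttr. The genes were taken by symbol, 8 of the 55416 genes counted, and the choice used no measured value as a threshold. Hepatocytes make these proteins and secrete them through the endoplasmic reticulum. Transthyretin (Ttr) carries thyroxine and binds retinol binding protein 4 (Rbp4) once that protein is loaded with retinol, which keeps Rbp4 from being filtered by the kidney. Albumin (Alb) carries fatty acids, hormones and drugs, the Gc protein carries vitamin D metabolites and corticosteroid binding globulin (Serpina6) carries glucocorticoids. Transferrin (Trf) carries iron, ceruloplasmin (Cp) is a copper protein that oxidizes iron, and hemopexin (Hpx) takes up free heme. In inflammation Cp and Hpx are classed with the proteins whose plasma level rises, and Ttr, Rbp4, Alb and Trf with those whose level falls.

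All cells were commercial PMH transfected with Lipofectamine RNAiMax and lysed after 24 h, so that every group shares the cell source and the reagent, and the 8 mock libraries had no siRNA named in their labels. D1, D2 and D3 target Hao1, the gene of the peroxisomal enzyme glycolate oxidase, and each target has a parent siRNA (D1 or D4) and 2 versions with a glycol nucleic acid (GNA) nucleotide in the seed of the guide strand. D2 carries GNA-C and D3 its isonucleotide GNA-isoC at guide position 5, and D5 carries GNA-G and D6 GNA-isoG at guide position 6; an isonucleotide here has its hydrogen bond donor and acceptor transposed. Each of the 6 siRNAs was used at 0.1, 1, 10 and 50 nM with 4 libraries per dose, which makes 96 libraries beside the 8 of mock, in 25 groups. No label ties a library to an animal or a separate culture, so the p-values measure the spread between wells, which may be technical. In bulk RNA, fewer cells of a type and less of an mRNA per cell cannot be told apart.

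Each library held between 3409963 and 6160626 gene counts (median 4983570), and levels are given in CPM, counts scaled to the total of the library after TMM normalization. Of the hepatocyte markers Apoa1 stood at 776 CPM in mock and Cyp2e1 at 35.5 CPM, but Cps1 at 4.85, Arg1 at 0.472 and G6pc at 0.248 CPM, so that several defining markers were nearly absent from these cells. Of 8 Kupffer cell markers 6 were at 0 in mock, among them Adgre1 and Clec4f. The summed level of the list was 16.2 to 23.0 CPM in mock, 12.2 to 40.0 CPM with D1 to D3 and 17.5 to 42.7 CPM with D4 to D6 at 50 nM. In mock this sum was nearly all Cd68, at 19.6 CPM, beside Csf1r at 0.318 CPM. Clec4g and Kdr of the endothelial list and Des and Pdgfrb of the stellate list were at 0 in mock. Their lists summed to 9.63 to 16.4 CPM and 14.9 to 26.8 CPM, led by Stab1 at 6.89 CPM and Reln at 19.5 CPM. The cholangiocyte list summed to 151 to 177 CPM in mock, 165 to 237 CPM with D1 to D3 and 186 to 245 CPM with D4 to D6 at 50 nM, led by Krt19 at 113 CPM in mock. The part of these markers in the results was not tested.

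The 8 genes lie on 7 chromosomes of GRCm39, Gc and Alb on chromosome 5 at chr5:89561689-89605757 (minus strand) and chr5:90608647-90624696 (plus strand). The others are Rbp4 at chr19:38105066-38113754, Trf at chr9:103081200-103107814, Hpx at chr7:105240817-105249344 and Serpina6 at chr12:103611821-103623752, all on the minus strand, and Cp at chr3:20011090-20063930 and Ttr, on chromosome 18, on the plus strand. Exons of Ttr, Rbp4, Cp, Trf and Gc overlap exons of antisense genes, of which Hps3 beside Cp had 10921 counts over all libraries against 1362936 of Cp, and Gm16090 and Ffar4 beside Ttr and Rbp4 had 106 and 105, while no counts were found for those beside Trf and Gc.

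Per kilobase of merged exon length, the mock libraries ordered the 8 genes from Alb (2602 ± 125 CPM per kb, SD, n = 8) over Trf (1088 ± 97.5), Hpx (803 ± 89.7), Gc (386 ± 15.7), Ttr (345 ± 29.6), Rbp4 (289 ± 17.3) and Cp (193 ± 33.0) to Serpina6 (5.07 ± 0.577). The mock ranges of neighbours overlapped for Trf (932 to 1232) and Hpx (691 to 938), for Gc (373 to 415) and Ttr (282 to 375), and for Ttr and Rbp4 (264 to 309), and not for the other neighbours, Cp at 163 to 256 CPM per kb among them. With the longest annotated transcript as length, Cp (387) stood above Rbp4 (338), so the order of these neighbours depends on the gene model. Alb was the gene at rank 2 of all genes by mock CPM and Serpina6 the gene at rank 7525, with 56 to 101 counts in a mock library.

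The targets were examined first. Mock libraries held 538 to 715 CPM of Ttr with a median of 675 CPM (2421 to 3558 counts). At 50 nM the 4 libraries of D4 had 2.06, 0.788, 1.37 and 0.598 CPM, those of D5 0.823, 1.53, 1.08 and 0.515 CPM, and those of D6 1.73, 0.921, 0.801 and 1.31 CPM. All lay far below the lowest mock library (of all genes, 19.6%, 4.25% and 17.9% had groups that did not overlap in these comparisons). The mean level was 0.183% ± 0.100 of mock with D4, 0.1502% ± 0.0655 with D5 and 0.181% ± 0.0635 with D6 (SD, n = 4).

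The lowest dose already left little Ttr mRNA. At 0.1 nM the level was 0.626% ± 0.189 of mock with D4 and 0.612% ± 0.208 with D6. With D5 at 0.1 nM, 3 libraries lay between 1.16 and 3.34 CPM and replicate 2 at 73.0 CPM (335 counts, 11.1% of mock). Against mock, the edgeR quasi-likelihood test (adjusted p by Benjamini-Hochberg over all genes tested) called Ttr lower in 11 of 12 comparisons, where between 0.0% (D5 at 0.1 nM) and 34.6% (D4 at 50 nM) of all genes were called. The exception was D5 at 0.1 nM (log2 fold change −5.13, adjusted p = 0.128), which passed without replicate 2. From 0.1 to 50 nM Ttr fell further with D4 (log2 fold change −1.73, SE 0.42, adjusted p = 0.00262) and with D6 (−1.73, SE 0.36, adjusted p = 0.000343), while D5 gave −4.24 (SE 1.39, adjusted p = 0.185), a value that rests on replicate 2 at 0.1 nM. Over this dose range 23.0%, 2.11% and 23.5% of all genes were called with D4, D5 and D6.

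Between the parent and the GNA versions, no difference in the Ttr level passed the test: of 9 pairs of siRNA and dose tested with edgeR the count called was 0, with 2 at an unadjusted p under 0.05 and 0 called by DESeq2. Of all genes, 0.0883%, 1.06% and 13.3% were called for D5 against D4 at 0.1, 1 and 10 nM, 0.0618%, 0.363% and 4.09% for D6 against D4, and 0.053%, 0.878% and 10% for D6 against D5. The pairs with the nearest call were at 10 nM, where D5 stood above D4 by 0.85 on the log2 scale (adjusted p = 0.277) and D6 below D5 by 1.04 (log2 fold change −1.04, adjusted p = 0.17). At 50 nM Ttr was too low for the filter, and a fit with all genes gave −0.26 for D5 against D4 (95% interval −1.37 to 0.85) and −0.02 for D6 against D4 (−1.06 to 1.013). With 2 to 29 counts per library outside that one D5 library, differences within these intervals were not detectable at this depth.

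Hao1 fell with its own siRNAs at every dose, from 27.7 to 38.7 CPM in mock to 36.7% ± 7.50 of mock with D1, 41.1% ± 1.27 with D2 and 20.4% ± 6.70 with D3 at 0.1 nM. At 50 nM it was at 6.69% ± 5.98, 5.20% ± 1.52 and 2.38% ± 1.14 of mock (SD, n = 4). With the siRNAs against Ttr at 50 nM it had 16.4 to 22.3 CPM with D4, 18.6 to 29.9 CPM with D5 and 16.6 to 24.3 CPM with D6, and fell too (log2 fold change −0.79, −0.44 and −0.65, adjusted p = 1.54e-07, 0.0192 and 1.01e-05), by less than the −3.97 to −5.39 of D1 to D3. With ERCC scaling the call of D5 was lost (−0.72, adjusted p = 0.227).

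**Figure D1:**
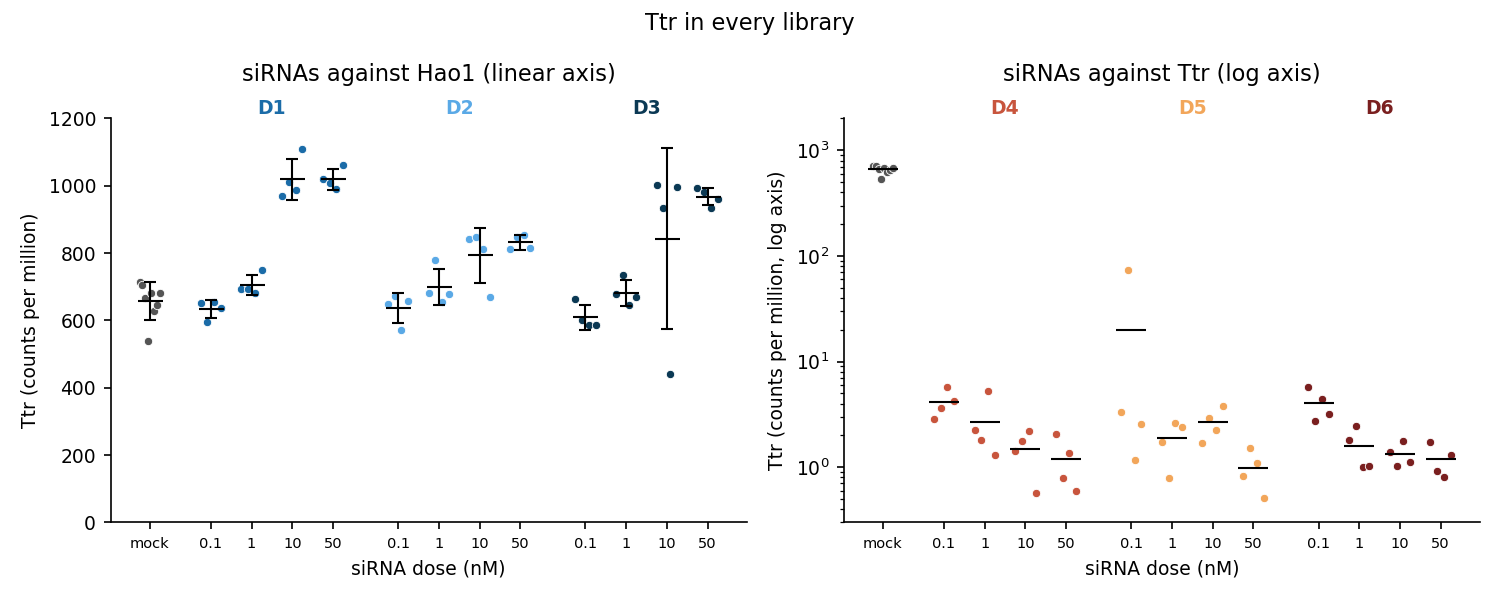
Ttr in each library, as CPM on a linear axis for mock and D1 to D3 (left) and on a log axis for mock and D4 to D6 (right), one point per library and a dash at the mean of the group, with SD bars in the left panel only. With D1 at 10 and 50 nM all libraries lay above the mock range of 538 to 715 CPM, D3 replicate 3 at 10 nM lay below it at 441 CPM, and with D4 to D6 one library of D5 at 0.1 nM stood apart at 73.0 CPM.

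Where it was not the target, Ttr mRNA was higher than in mock at the upper doses. With D1 at 50 nM the libraries had 1019, 1007, 989 and 1062 CPM, and at 10 nM 970, 1010, 988 and 1108 CPM, all above the highest mock library. With D2 at 50 nM they had 811, 848, 853 and 815 CPM, and with D3 993, 982, 935 and 961 CPM, again above the mock range. Ttr rose by 55.3% with D1 at 50 nM (log2 fold change 0.63, SE 0.06, adjusted p = 1.76e-11), by 25.6% with D2 (0.33, SE 0.05, adjusted p = 0.00014) and by 47.7% with D3 (0.56, SE 0.05, adjusted p = 4.54e-10). In these comparisons 25.9%, 6.04% and 28.3% of all genes passed the test, and the libraries of 14.1%, 3.83% and 14.9% of all genes did not overlap with mock.

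At 10 nM Ttr rose with D1 (53.2%, log2 fold change 0.62, SE 0.06, adjusted p = 2.96e-09), where 19.0% of all genes were called and the groups of 10.9% did not overlap. With D2 at 10 nM the libraries had 842, 847, 812 and 671 CPM, of which the last lay within the mock range, and the difference of 0.26 (SE 0.07) did not pass (adjusted p = 0.0532; 2.26% of all genes called). With D3 at 10 nM, 3 libraries had 1001, 934 and 996 CPM and replicate 3 had 441 CPM, below every mock library, so that the difference was 0.35 (SE 0.19, adjusted p = 0.246) with it and 0.57 without it. At 0.1 and 1 nM the libraries of D1 to D3 held 573 to 778 CPM, and the differences from mock lay between −0.12 and 0.09.

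The dose comparison, which uses no mock library, gave the same direction for all 3 siRNAs against Hao1. From 0.1 to 50 nM Ttr rose by 0.71 with D1 (adjusted p = 5.97e-12), 0.38 with D2 (adjusted p = 0.000336) and 0.68 with D3 (adjusted p = 0.0273) on the log2 scale, beside 19.3%, 2.07% and 19.4% of all genes called. The call of D3 was lost when any of 7 of its libraries was left out (0.65 to 0.69, adjusted p up to 0.0701), namely replicates 2, 3 and 4 at 0.1 nM and each of the 4 at 50 nM. Scaling to the ERCC spike-ins kept the direction at 50 nM and the call for D1 (0.59) and D3 (0.63) but not the call for D2 (0.12), and at 10 nM the call for D1 was lost (0.21). With D3 at 50 nM it moved the median of all genes by 0.0727, so the kept direction of D3 is no test.

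Ttr rose less with the GNA-C siRNA D2 than with its parent D1 at 50 nM. The 6 pairs of D1 to D3 at 0.1 and 1 nM differed by −0.07 to 0.02 and did not pass. At 50 nM Ttr was lower with D2 than with D1 by 0.32 on the log2 scale (log2 fold change −0.32, SE 0.05, adjusted p = 2.57e-05) and higher with D3 than with D2 (0.23, adjusted p = 0.00223), where 11.9% and 7.14% of all genes were called. ERCC scaling ended both calls. D3 and D1 differed by −0.09 (95% interval −0.19 to 0.01, adjusted p = 0.436). At 10 nM every D2 library lay below every D1 library (−0.36, SE 0.23, adjusted p = 0.548; 15.1% of all genes did not overlap in this pair), and the intervals of D3 against D1 (−0.72 to 0.18) and of D3 against D2 (−0.36 to 0.54; 3.74% of all genes called) were wide. These 3 pairs come from one fit, which holds D3 replicate 3 at 441 CPM. In all, 24 pairs of siRNA and dose were compared, and p-values were adjusted over all of them and all genes together.

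With the siRNAs against its plasma partner Ttr at 50 nM, Rbp4 fell with D6 and did not pass the test with D4 and D5. Mock libraries had 377 to 441 CPM of Rbp4 with a median of 412 CPM. With D4 at 50 nM the libraries had 403, 409, 407 and 384 CPM, with D5 403, 440, 442 and 478 CPM, and with D6 355, 381, 365 and 348 CPM. The libraries of D4 lay inside the mock range, one of D5 lay above it, and 3 of D6 lay below it. The difference from mock was −0.03 with D4 (95% interval −0.13 to 0.06, adjusted p = 0.633) and 0.10 with D5 (−0.01 to 0.21, adjusted p = 0.332), and Rbp4 fell by 12% with D6 (log2 fold change −0.18, 95% interval −0.29 to −0.08, adjusted p = 0.00611). Of all genes, 34.6%, 6.55% and 31.5% passed in these comparisons. Ttr was already at 0.626% of mock with D4 and 0.612% with D6 at 0.1 nM. At 0.1 and 1 nM, Rbp4 with D4 to D6 differed from mock by 0.01 to 0.14, with 0 of 6 comparisons called (0.0% to 2.13% of all genes called). Whether the loss of Ttr bears on Rbp4 was not tested, and these libraries do not measure protein.

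At 10 nM none of the 3 siRNAs against Ttr gave a called difference. With D6 the libraries had 389, 400, 343 and 366 CPM (−0.13, adjusted p = 0.0567), and with D4 and D5 the differences were 0.05 and 0.08 (adjusted p = 0.591 and 0.334), of which that of D4 turned to −0.53 with ERCC scaling. D6 lay below D5 at 50 nM (−0.28, adjusted p = 0.00158) and at 10 nM (−0.23, adjusted p = 0.0415), where 15.6% and 10% of all genes were called; the call at 10 nM was lost without any of 9 of the 12 libraries. The differences of D6 from D4 (−0.15, adjusted p = 0.179) and of D5 from D4 (0.14, 95% interval 0.02 to 0.25, adjusted p = 0.209; 16.8% of all genes called) at 50 nM did not pass.

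With D1, Rbp4 rose. The libraries of D1 had 453, 495, 513 and 566 CPM at 10 nM and 467, 474, 469 and 475 CPM at 50 nM, all above the mock range. The change was 21.6% at 10 nM (log2 fold change 0.28, SE 0.06, adjusted p = 0.000533) and 14.6% at 50 nM (0.20, SE 0.05, adjusted p = 0.00312), and ERCC scaling turned the direction at 10 nM (−0.12). With D2 and D3 at 50 nM the differences were 0.09 (adjusted p = 0.354) and 0.01 (95% interval −0.08 to 0.11). D3 stood below D1 at 50 nM (−0.20, adjusted p = 0.0182, 16.8% of all genes called) and D2 below D1 at 10 nM (−0.23, adjusted p = 0.0253, 8.78% called). The first call was lost without D3 replicate 1 or 3, and the second without D1 replicate 4 or D2 replicate 1, 3 or 4 and turned to 0.10 with ERCC scaling.

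**Figure D2:**
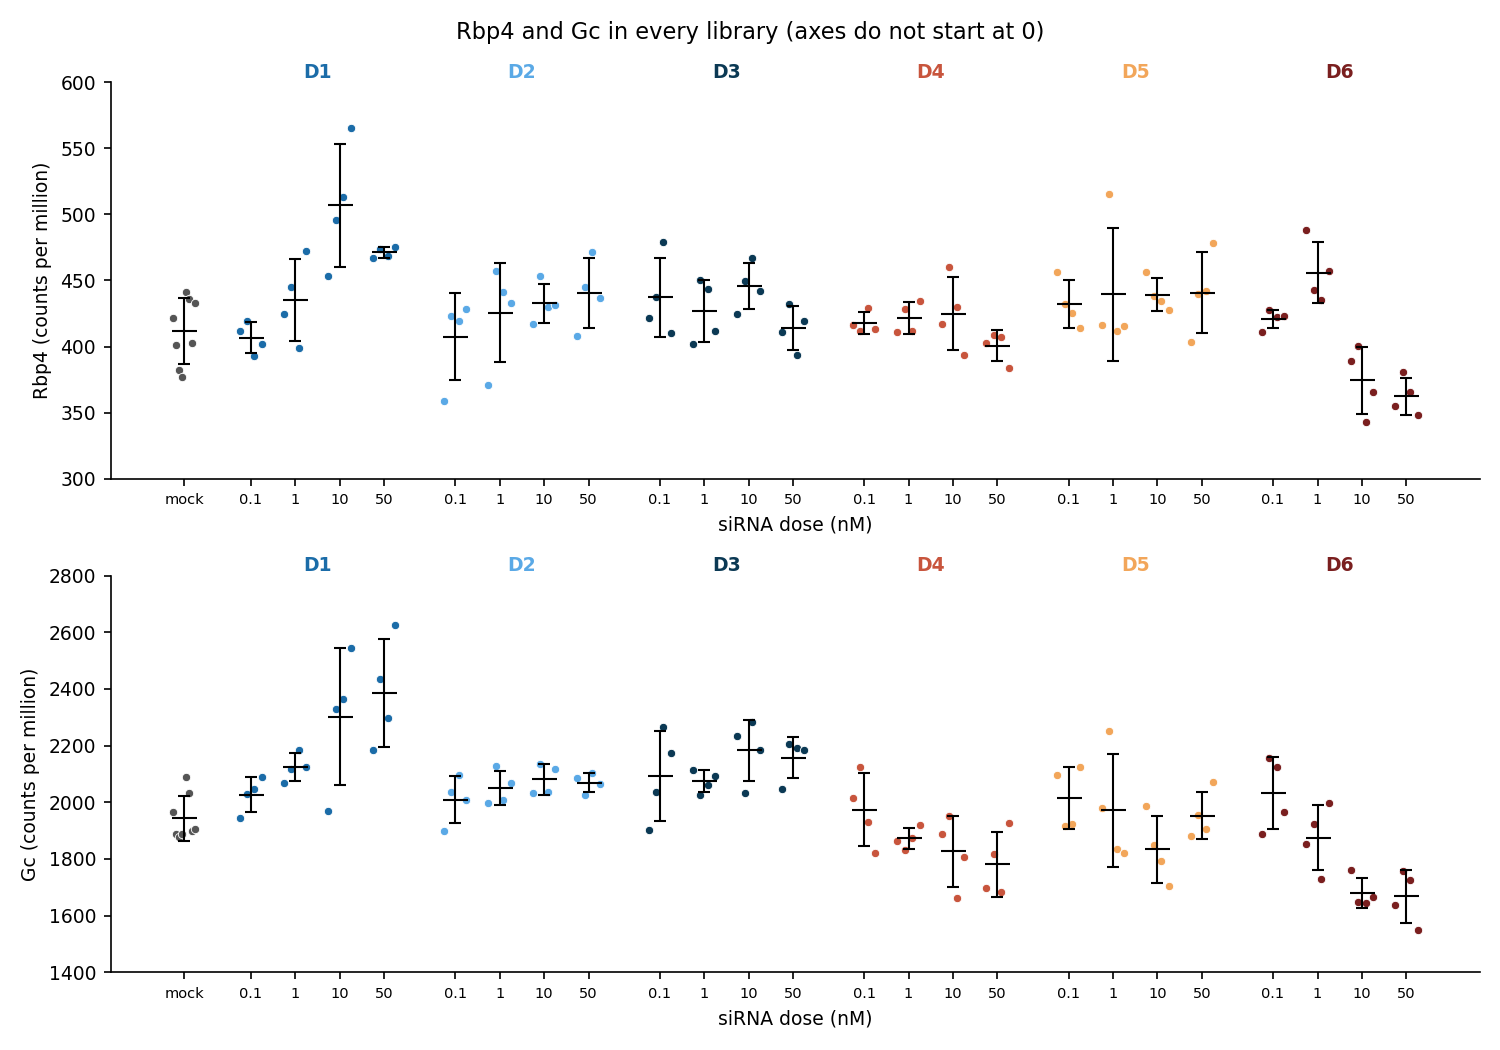
Rbp4 and Gc in each library, as CPM (linear axes that do not start at 0), one point per library with the group mean and SD, for mock and the 6 siRNAs. For Rbp4, D1 at 50 nM (467 to 475 CPM) lay above the mock range of 377 to 441 CPM and D6 at 50 nM overlapped with it; for Gc, D6 at 50 nM (1548 to 1758 CPM) lay below the mock range of 1877 to 2089 CPM and D1 at 50 nM (2185 to 2626 CPM) above it.

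Gc mRNA rose with D1 and D3 and fell with D4 and D6 at 50 nM. Mock libraries had 1877 to 2089 CPM, with a median of 1902 CPM. With D1 at 50 nM the libraries had 2185, 2435, 2299 and 2626 CPM, with D3 2048, 2206, 2191 and 2186 CPM, and with D6 1638, 1758, 1726 and 1548 CPM. D1 lay above and D6 below all mock libraries. Gc rose by 23.0% with D1 (log2 fold change 0.30, SE 0.05, adjusted p = 1.35e-05) and by 11.4% with D3 (0.16, adjusted p = 0.00492), and fell by 14.2% with D6 (−0.22, adjusted p = 0.000562). With D4 at 50 nM it had 1697, 1818, 1683 and 1926 CPM, one library inside the mock range, and fell by 0.12 on the log2 scale (adjusted p = 0.0376), a call lost without D4 replicate 1, 2 or 3 or mock replicate 5 or 6. At 10 nM Gc rose with D1 (0.23, adjusted p = 0.00539) and D3 (0.16, adjusted p = 0.0111) and fell with D6 (−0.21, adjusted p = 0.000453; the groups of 14.1% of all genes did not overlap), and with ERCC scaling the directions of D1 and D3 turned (−0.18 and −0.37). D2 lay below D1 at 50 nM (−0.23, adjusted p = 0.00497) and D6 below D5 (−0.23, adjusted p = 0.0127).

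Trf rose with D3 and was not called against mock with another siRNA. Its mock range was 5308 to 7012 CPM with a median of 6035 CPM, and D3 had 6919, 7207, 7953 and 7288 CPM at 50 nM, one of them inside that range. The difference was 0.25 at 50 nM (SE 0.06, 18.9%, adjusted p = 0.00104) and 0.24 at 10 nM (adjusted p = 0.00488, 17.4% of all genes called), the latter turning to −0.28 with ERCC scaling. With D2 at 50 nM it was 0.17 (adjusted p = 0.0891), with D1 −0.05 and with D6 −0.15 (adjusted p = 0.0709). D3 stood above D1 at 50 nM (0.29, adjusted p = 0.00272) and at 10 nM (0.28, adjusted p = 0.0366, 10.4% of all genes called), and D2 above D1 at 50 nM (0.22, adjusted p = 0.0357). The last of these calls was lost without D1 replicate 1 or 3 or D2 replicate 2 or 3, and the one at 10 nM without any of 6 libraries.

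Hpx, which binds heme, had 1039 to 1411 CPM in mock with a median of 1167 CPM. With D1 at 50 nM the libraries had 1302, 1345, 1393 and 1718 CPM, of which only the last exceeded the mock range, and the difference was 0.26 (adjusted p = 0.0523). With D4 the 50 nM libraries had 1161, 1249, 1139 and 1338 CPM and with D6 1134, 1233, 1211 and 1033 CPM, mostly inside the mock range. By edgeR 0 of 24 comparisons of Hpx with mock passed, 5 had an unadjusted p under 0.05, all higher, and DESeq2 called 2 higher.

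Alb, the most abundant of the 8 mRNAs, rose with 5 of the 6 siRNAs at 50 nM, a direction that ERCC scaling turned for D4 and D5. Mock libraries had 12450.3 to 14346 CPM (median 13290.4), and D4 had 15623, 16452, 15829 and 16652 CPM at 50 nM, all above that range. At 50 nM Alb rose by 13.8% with D1 (log2 fold change 0.19, adjusted p = 0.00464), 11.6% with D3 (0.16, adjusted p = 0.00486), 21.9% with D4 (0.29, SE 0.04, adjusted p = 2.35e-06), 12.1% with D5 (0.17, adjusted p = 0.029) and 13.7% with D6 (0.19, adjusted p = 0.00436), while D2 gave 0.12 (adjusted p = 0.124). With ERCC scaling the directions of D4 and D5 at 50 nM turned (−0.20 and −0.13), as did those of D1, D3, D4 and D6 at 10 nM (−0.21, −0.35, −0.31 and −0.028). The call of D5 was lost without D5 replicate 2, 3 or 4 or mock replicate 3, 4 or 7. At 10 nM Alb rose with D1 (0.19, adjusted p = 0.0311), D3 (0.18, adjusted p = 0.00379), D4 (0.27, adjusted p = 0.000321) and D6 (0.18, adjusted p = 0.00253), and the call of D1 was lost without D1 replicate 2, 3 or 4 or mock replicate 3.

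Cp was the most variable of these genes between mock libraries, with 1822 to 2865 CPM and a median of 1964 CPM. With D4 at 50 nM it had 2749, 3767, 3195 and 4383 CPM, and with D6 3199, 3465, 3241 and 2352 CPM, so that 3 of 4 libraries of each siRNA exceeded every mock library. Cp rose by 63.4% with D4 (log2 fold change 0.71, SE 0.15, adjusted p = 0.00358), by 41.8% with D6 (0.50, SE 0.14, adjusted p = 0.0192) and by 31.9% with D3 (0.40, SE 0.13, adjusted p = 0.0362). The call of D6 was lost without D6 replicate 1, 2 or 3 and that of D3 without any of 8 libraries. With D1, D2 and D5 at 50 nM the differences were 0.24 (adjusted p = 0.282), 0.39 (adjusted p = 0.113) and 0.21 (adjusted p = 0.406). At 10 nM Cp rose with D4 (0.57, adjusted p = 0.00429) and D6 (0.47, adjusted p = 0.0275), and the value of D4 turned to −0.0079 with ERCC scaling and the call of D6 was lost without D6 replicate 1 or 3.

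Serpina6 had few counts and rose most clearly with D4. Mock libraries had 13.5 to 19.7 CPM with a median of 16.4 CPM. D4 at 50 nM had 25.8, 25.004, 28.1 and 24.1 CPM, above the mock range, D5 had 17.3, 27.8, 24.5 and 27.5 CPM and D6 16.1, 19.2, 22.6 and 16.1 CPM. Serpina6 rose by 58.2% with D4 (log2 fold change 0.66, SE 0.11, adjusted p = 5.03e-06) and 49.3% with D5 (0.58, SE 0.12, adjusted p = 0.00258), while D6 gave 0.18 (adjusted p = 0.285). D6 stood below D4 at 50 nM (−0.48, adjusted p = 0.0312, 4.24% of all genes called), a call lost without any of 6 libraries. At 10 nM it rose with D1 (0.48, adjusted p = 0.00323), D3 (0.41, adjusted p = 0.00929), D4 (0.57, adjusted p = 0.000711) and D5 (0.49, adjusted p = 0.00886). The value of D3 turned to −0.090 with ERCC scaling, and the call of D5 was lost without D5 replicate 3 (0.36). With D2 at 50 nM Serpina6 rose by 31.5% (0.40, adjusted p = 0.0333), a call lost without any of 6 libraries.

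**Figure D3:**
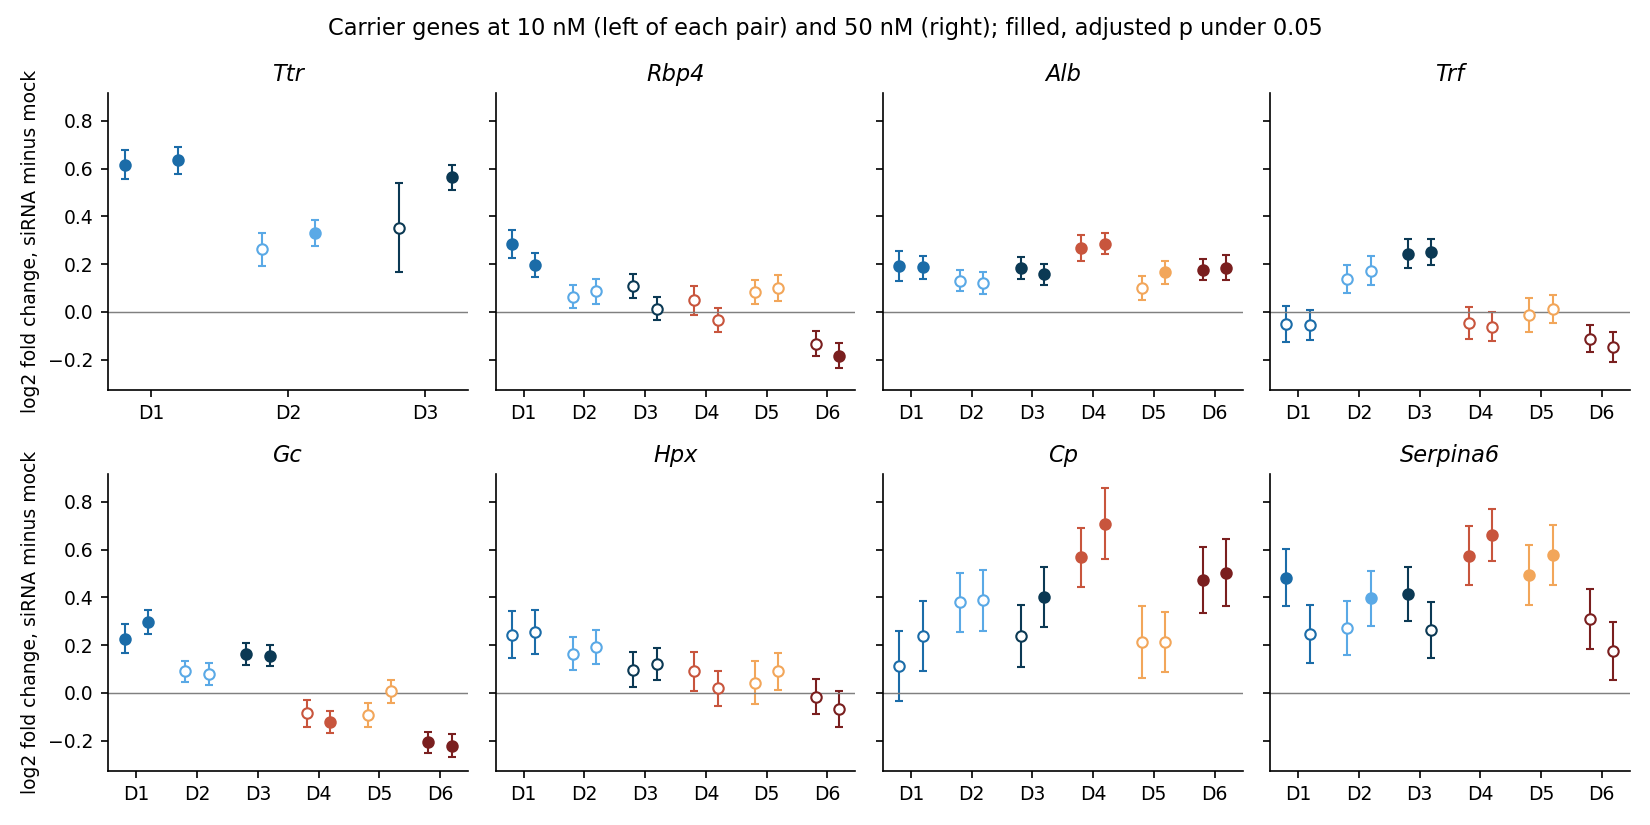
Log2 fold change against mock (vertical axis, bars are the SE) of each of the 8 genes for each siRNA, with 10 nM left and 50 nM right of each pair, filled where the adjusted p of edgeR is under 0.05; Ttr is shown for D1 to D3, where it was not the target. Filled points lie above 0 except Gc with D4 at 50 nM and D6 at both doses and Rbp4 with D6 at 50 nM, and with ERCC scaling Rbp4, Alb and Gc with D1, Alb, Trf, Gc and Serpina6 with D3, Alb and Cp with D4 and Alb with D6 at 10 nM and Alb with D4 and D5 at 50 nM change direction.

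Over the genes not targeted, the calls against mock lay at the upper doses. At 10 and 50 nM, 33 of 90 values were called higher and 4 lower. At 0.1 and 1 nM edgeR called 0 of 90, 18 had an unadjusted p under 0.05, all higher, and DESeq2 called 0. Of all genes 0.32% and 0.632% were called with D1 at 0.1 and 1 nM, 0.00885% and 0.00886% with D2, 0.00886% and 0.407% with D3, 0.00886% and 2.07% with D4, 0.0% and 0.0444% with D5 and 0.0532% and 2.13% with D6. With D1, 5 of 8 genes rose at 10 nM and 4 of 8 at 50 nM, beside 19.0% and 25.9% of all genes called in either direction. With D3 it was 4 and 5 of 8 beside 17.4% and 28.3%, and with D2 at 50 nM 2 of 8 beside 6.04%. With the siRNAs against Ttr, of the other 7 genes 3 rose with D4 at 10 nM (26.6% of all genes called) and 3 rose and 1 fell at 50 nM. With D5 it was 1 and 2 that rose (8.12% and 6.55%). With D6, 2 rose and 1 fell at 10 nM (25.8%) and 2 rose and 2 fell at 50 nM (31.5%). The median log2 fold change of these genes at 50 nM was 0.24 with D1, 0.18 with D2, 0.20 with D3, 0.02 with D4, 0.10 with D5 and −0.07 with D6, beside medians of all genes of 0.00 to 0.01. ERCC scaling moved the median of all genes by −0.57 to 0.39 over the comparisons, lowest with D4 at 10 nM against mock, so that changes here are relative to the bulk of genes.

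The 12 libraries of D4 to D6 were set against the 12 of D1 to D3 at the same dose, for the other 7 carrier mRNAs. The 2 sets share the transfection of a duplex but neither the target nor the seed sequence. Gc was lower with the siRNAs against Ttr by 0.30 on the log2 scale at 50 nM (log2 fold change −0.30, SE 0.03, adjusted p = 7.75e-11), by 0.29 at 10 nM (−0.29, adjusted p = 7.32e-08) and by 0.13 at 1 nM (−0.13, adjusted p = 0.008). Rbp4 was lower at 50 nM (−0.14, SE 0.03, adjusted p = 0.000206) and 10 nM (−0.15, SE 0.04, adjusted p = 0.00139), beside an SD of 0.09 between mock libraries on this scale. Trf was lower at both doses (−0.19, adjusted p = 6.3e-05, and −0.17, adjusted p = 0.0115) and Hpx at 50 nM (−0.18, adjusted p = 0.000939). The libraries of the 2 sets overlapped for each of these genes, as they did for all but 0.533% of genes at 10 nM and 0.499% at 50 nM. Thus 3 of 7 genes were lower at 10 nM and 4 of 7 at 50 nM, where 29.6% and 36.3% of all genes were called, and Gc alone was lower at 1 nM (1.87%; 0.0346% at 0.1 nM). By edgeR 0 of 28 values were higher, 1 (Serpina6 at 50 nM) had an unadjusted p under 0.05, and DESeq2 called 0. Changes of either set from mock enter these differences. Against mock, Rbp4 rose with D1 (0.28 at 10 nM) and was called lower only with D6 at 50 nM (−0.18). Trf rose with D3 (0.25 at 50 nM), and neither Trf nor Hpx was called lower than mock with D4 to D6. Gc rose with D1 and D3 and fell with D4 and D6 at 50 nM.

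Alb, Cp and Serpina6 differed less between the 2 sets of siRNAs. At 50 nM the values were 0.05 for Alb (95% interval −0.01 to 0.11, adjusted p = 0.176), 0.13 for Cp (adjusted p = 0.263) and 0.16 for Serpina6 (adjusted p = 0.0951). ERCC scaling kept the direction of the called differences, with −0.54 for Gc, −0.43 for Trf, −0.42 for Hpx and −0.40 for Rbp4 at 50 nM. It moved the median of all genes by −0.265 in this comparison at 50 nM. Since that shift is itself negative, the kept direction at 50 nM is no test of these differences.

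**Figure D4:**
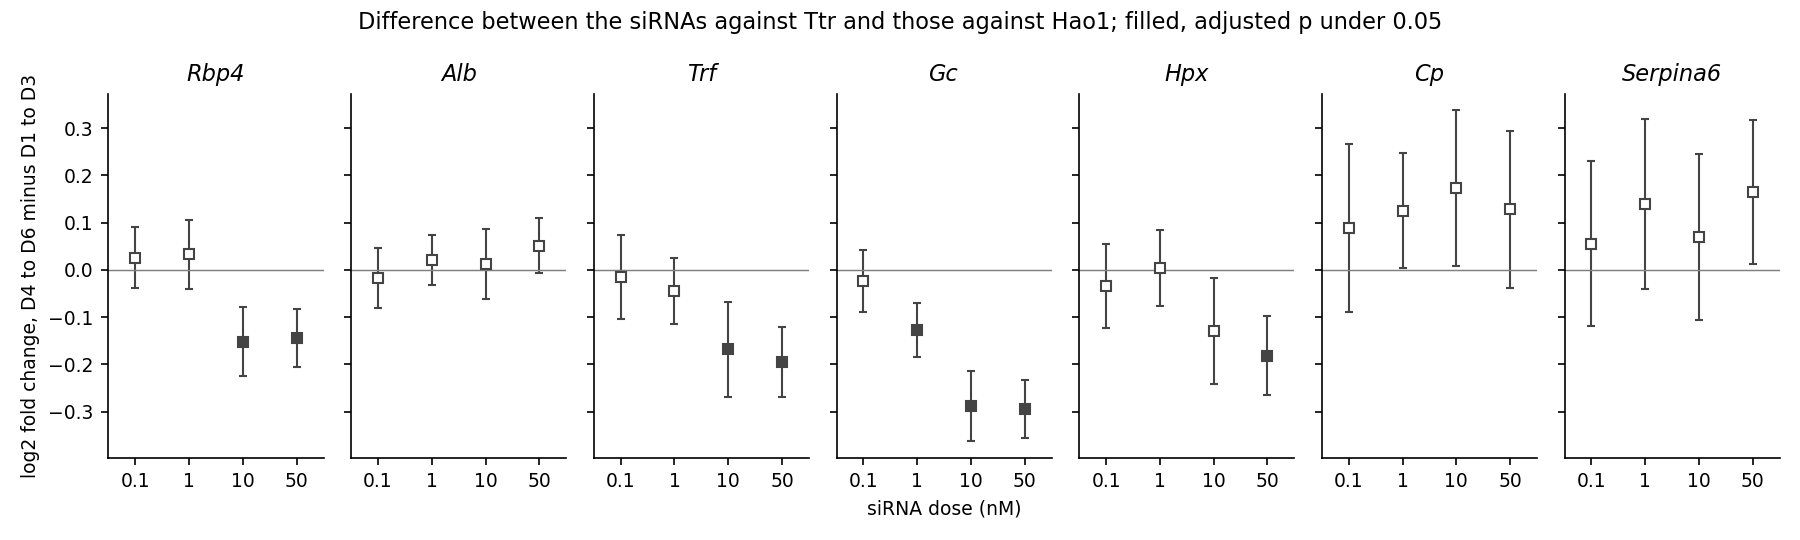
Log2 fold change of D4 to D6 against D1 to D3 at each dose in nM (squares, bars are the 95% interval, filled where the adjusted p of edgeR is under 0.05) for the 7 carrier genes other than Ttr. Gc, Rbp4, Trf and Hpx reach −0.30, −0.14, −0.19 and −0.18 at 50 nM against −0.02, 0.03, −0.01 and −0.03 at 0.1 nM. ERCC scaling moves the median of all genes by −0.265 at 50 nM, so that these negative directions are kept under it without being tested.

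The change from 0.1 to 50 nM itself was compared between the 2 sets, in a test added after the data were seen. It was lower with D4 to D6 than with D1 to D3 for Gc (−0.27, SE 0.04, adjusted p = 1.89e-06), Rbp4 (−0.17, SE 0.04, adjusted p = 0.00204) and Trf (−0.18, SE 0.06, adjusted p = 0.0378), in a comparison where 23.2% of all genes were called. For Hpx the value was −0.15 (adjusted p = 0.12), for Alb 0.07 (adjusted p = 0.268), and for Cp and Serpina6 0.04 and 0.11. With ERCC scaling Gc (−0.55, adjusted p = 0.0379) passed, while Rbp4 (−0.46, adjusted p = 0.0945) and Trf (−0.45, adjusted p = 0.0988) kept the direction only. That scaling moved the median of all genes between the 2 sets by 0.0254 at 0.1 nM and −0.265 at 50 nM. Since the shift at 50 nM is itself negative, neither the kept directions nor the call of Gc tests these differences. By siRNA, Rbp4 rose from 0.1 to 50 nM with D1 (0.23, adjusted p = 0.00619) and fell with D6 (−0.22, adjusted p = 0.0031), and Gc rose with D1 (0.26, adjusted p = 0.00429) and fell with D6 (−0.29, adjusted p = 0.000137). In all, 4 of 8 genes rose with D1 and 4 of 7 fell with D6 over this dose range, beside 19.3% and 23.5% of all genes called. With D6 the others were Trf (−0.31, adjusted p = 0.00063) and Hpx (−0.20, adjusted p = 0.0379, lost without any of 6 libraries).

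Chaperone and stress genes of the endoplasmic reticulum, where these proteins fold before secretion, rose in part with D1 and fell in part with D3, D4 and D6. Of 18 genes of the list tested, 8 rose with D1 at 10 nM, and 8 rose and 1 fell at 50 nM (44.4% and 50% of the list, medians 0.24 and 0.15), beside 19.0% and 25.9% of all genes called. With D6, 11 fell at 10 nM and 14 at 50 nM (medians −0.21 and −0.33), beside 25.8% and 31.5% of all genes called, and with D4, 5 and 9 fell, beside 26.6% and 34.6%. With D3 at 50 nM 1 rose and 6 fell (median −0.13, 28.3% of all genes called). Among those that fell were Trib3 (−0.68) and Herpud1 (−0.35), which are stress genes and not chaperones. With D2 at 50 nM 2 fell (6.04%). ERCC scaling turned the median of D1 at 10 nM (−0.18) and kept those of D1 at 50 nM (0.090) and D6 (−0.46 and −0.51). With D6 it moved the median of all genes by −0.212 at 10 nM and −0.166 at 50 nM, so the kept signs of D6 are no test. Hspa5, the main chaperone of the compartment (BiP), stood at 1720 ± 124 CPM in mock and rose by 0.30 on the log2 scale with D1 at 50 nM (2110 ± 72.8 CPM, adjusted p = 2.6e-05), a call lost with ERCC scaling (0.24, adjusted p = 0.541). It fell with D4 (−0.40, adjusted p = 1.7e-05) and D6 (−0.41, adjusted p = 2.26e-07). Canx and Calr, the lectin chaperones of glycoproteins, fell with D6 by 0.53 and 0.42 on the log2 scale (adjusted p = 4.25e-11 and 1.18e-08), Calr also fell with D2, D3 and D4 (−0.19, −0.24 and −0.16) and rose with D1 (0.22), and Manf fell with D1, D4 and D6 (−0.26, −0.40 and −0.51). With D5, edgeR called 0 of 18 at both doses, with 2 at an unadjusted p under 0.05 at 10 nM and 4 at 50 nM, and DESeq2 called 0. In D4 to D6 against D1 to D3, 13 of 18 were lower at 10 nM (29.6% of all genes called), among them Hyou1 (−0.36).

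Acute phase genes other than Cp and Hpx were called in both directions. Of 19 positive acute phase genes, 9 rose with D1 and 12 rose and 1 fell with D3 at 50 nM (medians 0.23 and 0.28), beside 25.9% and 28.3% of all genes called. With D4, 8 rose and 6 fell, and with D6, 3 rose and 6 fell (medians 0.15 and −0.02), beside 34.6% and 31.5%, and in D4 to D6 against D1 to D3, 11 of 19 were lower (median −0.16), beside 36.3%. With ERCC scaling the median of D4 turned (−0.38), and those of D1, D3 and D6 and of the targets did not (0.18, 0.34, −0.19 and −0.40). That scaling moved the median of all genes by 0.0727 with D3, −0.166 with D6 and −0.265 between the targets. These shifts have the signs of the list medians, so the kept signs of D3, D6 and the targets are no test. Fgg, the gamma chain of fibrinogen, was at 210 ± 17.4 CPM in mock and rose with D1 (0.85, adjusted p = 1.81e-14) and D3 (0.48, adjusted p = 5.19e-08), with D2 and D5 (0.51 and 0.44, calls lost with ERCC scaling), and fell with D4 (−0.85, adjusted p = 5.43e-14) and D6 (−1.01, adjusted p = 7.28e-15). Steap4, a metalloreductase, rose with D3, D4 and D6 (1.14, 1.72 and 0.84), and Crp fell with D3 and D4 (−1.45 and −1.06), from 6.94 CPM in mock. Among 23 other secreted plasma proteins, 12 rose and 3 fell with D1 and 12 rose and 4 fell with D4, beside 25.9% and 34.6% of all genes called. Ahsg (fetuin-A) rose with all 6 siRNAs (0.58, 0.93, 1.01, 0.64, 0.87 and 0.50 with D1 to D6), of which ERCC scaling ended the calls of D4 (0.11, adjusted p = 0.722) and D5 (0.56, adjusted p = 0.311), and Apob, the apolipoprotein of VLDL, fell with D4 and D6 (−0.62 and −0.70) and rose with D3 (0.27). Igfbp1, a carrier of insulin-like growth factors, fell with D1, D3, D4 and D6 (−0.85, −1.06, −2.47 and −2.31).

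The pathways that these carriers serve gave mixed directions. Of 11 genes of retinol handling tested, 3 rose and 2 fell with D4 and 3 rose and 3 fell with D6 at 50 nM (medians 0.29 and −0.08, of which ERCC scaling turned the first to −0.18), beside 34.6% and 31.5% of all genes called. Adh1 and Rdh10, which oxidize retinol, rose with D4 (0.85 and 0.56, the latter −0.0025 with ERCC scaling) and D6 (0.67 and 0.50), and Aldh1a1, which makes retinoic acid, fell (−0.45 and −0.52) from 2055 ± 128 CPM in mock. Rxra, the partner of retinoic acid and thyroid hormone receptors, fell with D1 (−0.49), D2 (−0.22), D3 (−0.30) and D6 (−0.22). Of 9 genes of thyroid hormone transport and action tested, 5 rose and 2 fell with D4 at 50 nM (34.6% of all genes called). Thra, a thyroid hormone receptor, rose with D6 (1.28) from 2.53 CPM.

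Of 23 genes of iron, heme and copper tested, 11 rose and 4 fell with D3 and 6 rose and 5 fell with D4 at 50 nM (medians 0.22 and 0.13, the second −0.36 with ERCC scaling), beside 28.3% and 34.6% of all genes called. Hamp, the gene of the iron hormone hepcidin, rose with D3 (2.31, adjusted p = 0.000653) from 3.78 ± 2.37 to 18.8 ± 6.71 CPM. Fth1, ferritin heavy chain, fell with D4 (−0.55), Slc40a1, the iron exporter ferroportin, rose with D1, D5 and D6 (0.38, 0.58 and 0.52), and Hmox1, which degrades heme, rose with D5 and D6 (0.76 and 1.06). Of 13 genes of glucocorticoid and vitamin D action, 5 rose and 1 fell with D1 and 3 rose and 5 fell with D6 (25.9% and 31.5% of all genes called). Nr3c1, the glucocorticoid receptor, fell with D4 and D6 (−0.39 and −0.26) and so did its target Fkbp5 (−0.54 and −0.36), which also fell with D1 (−0.22). Other genes of this list went both ways: Tsc22d3 fell with D6 (−0.56), while Dusp1 rose with D4 and D6 (0.35 and 0.33). ERCC scaling turned Dusp1 with D4 (−0.17) and ended its call with D6 (0.16).

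**Figure D5:**
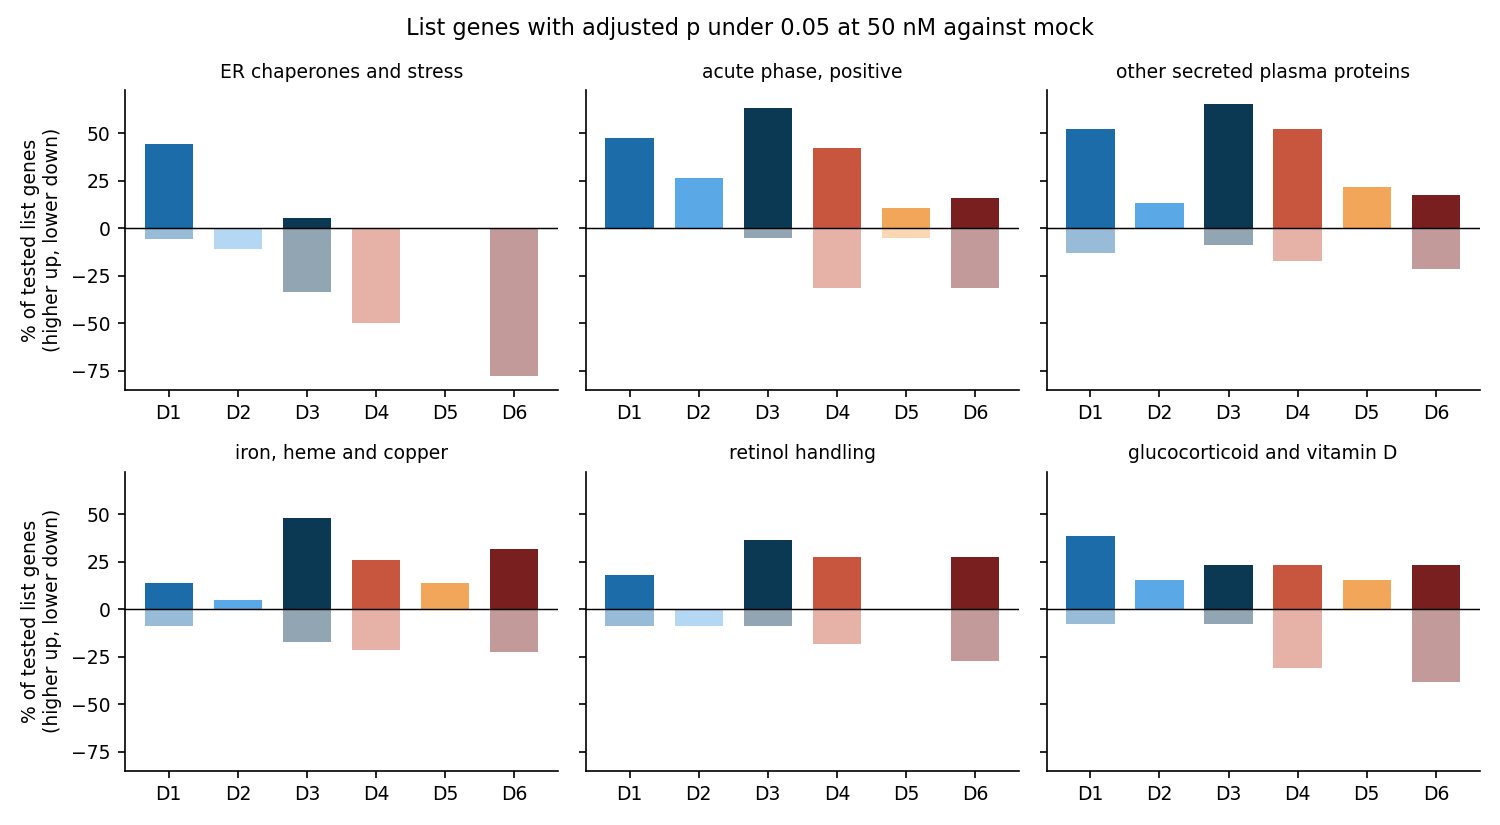
Share of the tested genes of 6 lists that rose (above 0) or fell (below 0) against mock at 50 nM with an adjusted p of edgeR under 0.05, in percent, for each siRNA. Of the 18 chaperone and stress genes 8 rose with D1 and 14 fell with D6. With ERCC scaling the medians of this list with D1 and D6 at 50 nM kept their signs (0.090 and −0.51). The sign of D6 is kept without being tested, since the median of all genes moved by −0.166. Those of the acute phase and retinol genes with D4 turned (−0.38 and −0.18).

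Of liver transcription factors, 15 or 16 were tested. Hnf4a, a main factor of hepatocyte genes, was at 249 ± 24.8 CPM in mock and fell with D1 at 50 nM (−0.44, adjusted p = 1.99e-06), and Foxa1 fell with D2 and D3 (−0.36 and −0.44) and rose with D4 (0.47, but −0.075 with ERCC scaling). Of 139 values that the rule for naming list genes gave, 11 changed sign and 64 no longer passed with ERCC scaling, while RLE scaling changed the sign of 0 and ended 1 call. Among the genes named above, the calls of Adh1 with D4 (0.44, adjusted p = 0.205), Hmox1 with D5 (0.42, adjusted p = 0.37), Slc40a1 with D1, D5 and D6, Rxra with D2, D3 and D6, Rdh10 with D6, Nr3c1 with D6, Fkbp5 with D1, Manf with D1, Calr with D2 and D3, Apob with D3, Hyou1 between the targets at 10 nM, Hnf4a with D1 (−0.48, adjusted p = 0.061) and Foxa1 with D2 and D3 were also lost with the sign kept.

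Matches to the seed of the guides were searched because an siRNA can repress other mRNAs through its guide positions 2 to 8 as a microRNA does. The longest annotated protein-coding 3′-UTR of each gene was read on the mRNA strand for the complement of guide positions 2 to 8 (ATCGACA for D1 to D3 and CTCTATA for D4 to D6) or of positions 2 to 7 followed by an A (TCGACAA and TCTATAA). Of 11059 genes 2.86% held a match for D1 to D3 and 20.1% for D4 to D6. Among the carrier genes other than Ttr only Cp held one, of D4 to D6, at base 1260 of a 3′-UTR of 1966 bases. Of the gene lists, 15 genes held a match for D4 to D6 and 2 for D1 to D3. A base of the longest 3′-UTR can be coding sequence in another transcript of the gene, which was not checked. The site of Cp is shown with 4 others, chosen after their values were seen for genes described here, in lower case with the match in capitals, each read from GRCm39 on the strand of the gene.
Cp, chr3:20061947-20061973 (plus strand): gtctctatgtTCTATAAagtccacatt
Fth1, chr19:9962371-9962397 (plus strand): cttcatctttTCTATAAgttgcaccaa
Aldh1a1, chr19:20620826-20620852 (plus strand): attttgttgaTCTATAAttatttggga
Hnf4a, chr2:163412498-163412524 (plus strand): tgctaccatcCTCTATAccttcctccg
Apoa1, chr9:46141655-46141681 (plus strand): ccagagtgtgATCGACAaggccagcga

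Of the 15 genes at 50 nM, 2 rose and 5 fell with D4 and 2 rose and 8 fell with D6, from −1.07 (Onecut2) to 0.71 (Cp) with D4, beside 34.6% and 31.5% of all genes called. With D5 edgeR called 0 of 15, 2 had an unadjusted p under 0.05 and DESeq2 called 0. Cp, with the match to D4 to D6, was the carrier that rose by 0.71 with D4 and 0.50 with D6, and gave 0.21 with D5. Fth1 gave −0.55, 0.04 and −0.47 with D4, D5 and D6 at 50 nM, and −0.25 and −0.45 with D1 and D3, for which no match was found. Onecut2, with a match to D4 to D6 alone, gave −1.07, −0.22 and −0.91 with D4, D5 and D6, and −1.53 with D3. Aldh1a1 gave −0.45, −0.07 and −0.52 with D4, D5 and D6. Hnf4a gave 0.05, −0.03 and −0.12 with them and −0.44 with D1, for which no match was found. Apoa1, with a match to D1 to D3, gave 0.01 and 0.18 with D1 and D2 and rose with D3 (0.26). Its match is at base 561 of a longest 3′-UTR of 1108 bases, and may be coding sequence in other transcripts of Apoa1. A match is a description of the sequence, and these values do not tell whether it was used.

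The genes whose group means followed each carrier most closely were sought over 8639 genes with at least 10 CPM and 25 groups, as a description, since the groups share the cell source, the reagent and, within a target, the seed. For Rbp4 they were Dnajb11, a cochaperone of Hspa5 (Pearson r = 0.891), Slc35b1 (0.89) and Tbrg1 (0.889), and for Gc Erp44, which retains proteins of the secretory pathway (0.924) and Ubfd1 (0.901). For Alb they were Apoe (0.961), Mup3 (0.917) and F11r (0.913), for Trf Egr1 (0.907), Igfbp3 (0.901) and Itih5 (0.896), and for Hpx H2-Q10 (0.864), Itih3 (0.822) and Psmd10 (0.816). For Cp they were Gjb2 (0.919), Smarca2 (0.86) and Cpeb1 (0.843), for Serpina6 Cd276 (0.88), Lamb3 (0.869) and Crct1 (0.863), and for Ttr, over mock and the 12 groups of D1 to D3, Dusp8 (0.981), Zfr (0.967) and Tbc1d9 (0.965).

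Among the carriers, Rbp4, Gc and Hpx had group means that went together (r = 0.728 for Rbp4 and Gc, 0.808 for Rbp4 and Hpx and 0.812 for Gc and Hpx over 25 groups), as did Alb and Serpina6 (0.817), while Gc and Cp had r = −0.539. Over the 13 groups in which it was not targeted, Ttr had r = 0.799 with Alb, 0.693 with Rbp4, 0.822 with Gc and 0.717 with Serpina6.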

How the data were processed

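RNA of primary mouse hepatocytes was sequenced as stranded total RNA libraries. The authors deposited counts of reads per gene, not normalized, in 2 sequencing runs per library, made by filtering reads with fastq-mcf, aligning them to GRCm39 with STAR and counting with featureCounts 2.0.2 (per the submitters' processing notes). The authors also deposited DESeq2 1.32.0 tables with their own fold changes and p-values, of which only the gene symbols were used. Whether counting used the strand and which annotation it used are not given in the sources used here.

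The 2 runs were summed (chi-square per degree of freedom 0.990 to 1.07 between runs, at least 1.67 for 172 pairs of replicates). The 92 ERCC spike-ins (0.425% to 1.43% of counts) were left out of library sizes. The test was edgeR's quasi-likelihood F test (edgeR 4.0.16, R 4.3.3; filterByExpr, TMM, robust glmQLFit), with Benjamini-Hochberg adjustment over all genes tested and a threshold of 0.05. Fits held one siRNA and dose and mock, the 24 libraries of one dose, the 12 libraries of one target and dose (adjusted over all 24 pairs together) or the 16 libraries of one siRNA. The test of the dose change between the sets was added after the data were seen and held the libraries of all siRNAs at 0.1 and 50 nM. Log2 CPM used a prior count of 2. Intervals are 1.96 SE on either side. On simulated counts for D4 at 50 nM against mock (11341 genes) 74.0% to 78.0% of changes of 0.5 and 87.8% to 96.0% of changes of 1 on the log2 scale were recovered. For D5 against D4 at 10 nM (11332 genes) these were 44% to 68% and 84% to 88%, and for D4 at 50 against 0.1 nM (11495 genes) 60% and 86% to 94%.

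Gene models, 3′-UTRs and sequences came from GENCODE M39 on GRCm39, which may differ from the authors' annotation. Ddit3 has 2 identifiers, of which the one with more counts was used. The members and gene lists were chosen with earlier results of these data known. From each list, up to 4 genes with an adjusted p under 0.05, no overlap between groups and the largest absolute change were named, for D4 to D6 against D1 to D3 and for 50 nM against mock, with any gene of a list that holds a seed match and, for each carrier, the 3 genes with the highest r; a few genes that these rules gave are not reported here. Alternatives were RLE and ERCC scaling, no count filter, DESeq2 1.42.0, each run alone, one fit of all libraries, a replicate block and leaving out each library. Tables and figures used Python 3.11.15, numpy 2.4.6, pandas 2.3.3, scipy 1.17.1 and matplotlib 3.10.9.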

Additional observations from a re-analysis of the deposited data

Results flagged for a closer look

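In the groups of 4 libraries and the 8 of mock, the gap of the highest or lowest library to the next was examined. It was above the 95% critical value of Dixon's test on the log2 CPM scale in 7 of 200 sets of a gene and a group. Chance gives about 1 in 20, or 10 sets. On that scale Ttr in D5 replicate 2 at 0.1 nM, which stands apart in CPM, was below the critical value. For Ttr these were mock replicate 4 at 538 CPM, with the others at 627 to 715 CPM, and D3 replicate 3 at 10 nM at 441 CPM, with the others at 934 to 1001 CPM. In that D3 library the target Hao1 was at 0.592 CPM, inside the 0.434 to 1.12 CPM of the others, Alb at 15878 CPM lay above them (14667 to 15081 CPM) and Rbp4 at 467 CPM also did (424 to 450 CPM).

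For Rbp4 a library stood apart with D2 at 0.1 nM, where replicate 1 had 359 CPM and the others 420 to 429 CPM, and with D5 at 1 nM, where replicate 2 had 515 CPM and the others 412 to 416 CPM. Alb in D5 replicate 4 at 10 nM was at 12949 CPM against 14627 to 14962 CPM, Gc in D3 replicate 1 at 50 nM at 2048 CPM against 2186 to 2206 CPM, and Cp in D4 replicate 1 at 1 nM at 2704 CPM against 2876 to 2889 CPM.

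The change from 0.1 to 50 nM differed between the siRNAs against Ttr and those against Hao1 for Gc (−0.27, SE 0.04), Trf (−0.18, SE 0.06) and Rbp4 (−0.17, SE 0.04), on the log2 scale. The test of this difference was added after the data were seen.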

How the results depend on the processing

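ERCC scaling changed the most: calls against mock fell from 33 to 3 higher, those of D4 to D6 against D1 to D3 from 8 to 4 lower, those between siRNAs of one target from 4 higher and 8 lower to 0 of either, and those of 50 against 0.1 nM from 8 higher and 4 lower to 2 and 0. Under it Ttr with D1 at 10 nM (0.21), Ttr with D2 at 50 nM (0.12) and Rbp4 in D4 to D6 against D1 to D3 at 10 nM (−0.18) no longer passed. It reversed Rbp4 with D1 at 10 nM (−0.12), D2 against D1 at 10 nM (0.10) and D4 at 10 nM (−0.53), Alb with D1, D3, D4 and D6 at 10 nM (−0.21, −0.35, −0.31, −0.028), D4 and D5 at 50 nM (−0.20, −0.13) and D4 at 50 against 0.1 nM (−0.041), and at 10 nM Trf with D3 (−0.28), Gc with D1 and D3 (−0.18, −0.37), Hpx with D4 (−0.49), Cp with D4 (−0.0079) and Serpina6 with D3 (−0.090). The cause was not tested. Ttr with D2 at 10 nM passed with all genes (0.26), DESeq2 (0.23), run 1 (0.25), run 2 (0.28) and a replicate block (0.26), and Ttr with D2 at 50 nM failed in one fit of all libraries (0.33). Calls between siRNAs became 7 higher with all genes and 2 higher in one fit, and 5 lower with run 1. Whether the replicate numbers pair the libraries is not given by the labels. The median correlation of deviations was 0.0388 for the same number and −0.0135 for different numbers, and 28.8% and 17.9% of the correlations were above 0.1. The main test leaves the replicate number out, and the replicate block gave 55 higher and 2 lower against mock, from 33 and 4.

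Leaving out 1 library each, Ttr was called lower against mock in 11 to 12 comparisons, and its difference with D1 was 0.57 to 0.64 at 10 nM and 0.60 to 0.65 at 50 nM, with D2 0.22 to 0.33 and 0.29 to 0.35, and with D3 0.26 to 0.57 and 0.52 to 0.58. Rbp4 in D4 to D6 against D1 to D3 was 0.01 to 0.04, 0.00 to 0.05, −0.17 to −0.14 and −0.16 to −0.13 at the 4 doses. Counts were 29 to 42 higher and 3 to 7 lower against mock, 0 to 1 and 8 to 9 between targets, 3 to 6 and 7 to 11 between siRNAs, and 7 to 9 and 3 to 5 between doses. Of 3686 member values under the other alternatives, 223 uncalled ones changed sign. Depth limits the silenced Ttr and Serpina6.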
